A study of Mus musculus with 4 samples.

Results

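The genes described here encode the proteins of the mitochondrial ribosome, measured along 4 mouse tibialis anterior muscles by TOMO-seq, which cuts a frozen tissue into serial sections and tags each section's RNA with a barcode before sequencing. The members are the single-gene rows of the count tables whose symbol starts with Mrpl or Mrps and a digit, pseudogenes left out, which gave 77 of 28989 genes, and all 77 were found in each of the 4 muscles. By subunit, 50 members belong to the large subunit (Mrps18a and Mrps30 among them, despite their names), 26 to the small subunit, and Mrps36 to neither, being a subunit of the 2-oxoglutarate dehydrogenase complex. The labels give the tissue and a muscle number only: all 4 muscles form 1 group, with no treatment, genotype, strain or age stated, and nothing says that they came from separate animals. The p-values below therefore measure the spread between these samples, which may be technical.

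The mitochondrial ribosome translates the few messenger RNAs of the mitochondrial genome, all of which code for subunits of the respiratory chain and ATP synthase. Its RNAs are mitochondrial, while its proteins are encoded in the nucleus, made in the cytosol and imported. Some of them have homologues in bacterial ribosomes and others are found only in mitochondria. In a fast muscle such as tibialis anterior, fibres differ in mitochondrial content.

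The authors kept 37, 45, 46 and 43 sections of muscles 1 to 4 (171 in all), with 86190 to 1159697 transcripts per section and a median of 9250 to 10517 genes detected. Muscles 1 and 2 were made with another set of section barcodes than muscles 3 and 4, so barcode set and muscle cannot be told apart. Markers of the skeletal muscle fibre (Acta1, Ckm, Myh4, Myh1, Tnnt3 and Ttn) summed to 29307 to 34115 CPM (counts scaled to library size, here with the TMM method) in the 4 muscles, and the 3 neuronal markers were each under 1 CPM. In sections of whole muscle, a change in the number of cells of a type and a change in RNA per cell cannot be told apart. Sections run from the lowest to the highest barcode number. Which anatomical end came first is not given, so "first end" means low barcode numbers.

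The promoters of 4 members are shown as examples of promoters that hold a motif, so they do not stand for all members. Mrpl42 and Mrpl51 were among the most abundant, and Mrps18a had the largest difference between the ends. The level of Mrpl32 differed between the barcode sets. Of the other members named below, Mrps21, Mrps36, Mrpl41, Mrpl21 and Mrpl14 had a promoter without a match. Some others, such as Mrpl9, Mrpl3 and Mrps11, had a match that is not shown. For some, such as Mrpl4, Mrps28 and Mrps35, no promoter was found. Each run covers 250 bases before to 50 bases after the gene's start, read along the gene, from RefSeq on GRCm38.p6. Capitals mark letters that match 1 of 3 motifs searched on both strands: GCGCATGCG (nuclear respiratory factor NRF1), CCGGAAGT (ETS factors such as GABPA) and AAGATGGCG (YY1). 
Mrpl42 (chr10:95501900-95502199, minus strand): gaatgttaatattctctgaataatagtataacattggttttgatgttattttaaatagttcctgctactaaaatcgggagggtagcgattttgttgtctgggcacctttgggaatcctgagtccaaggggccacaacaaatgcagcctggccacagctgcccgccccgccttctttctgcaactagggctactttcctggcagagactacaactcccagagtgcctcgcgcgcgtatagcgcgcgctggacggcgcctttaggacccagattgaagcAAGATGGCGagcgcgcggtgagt
Mrpl51 (chr6:125191950-125192249, plus strand): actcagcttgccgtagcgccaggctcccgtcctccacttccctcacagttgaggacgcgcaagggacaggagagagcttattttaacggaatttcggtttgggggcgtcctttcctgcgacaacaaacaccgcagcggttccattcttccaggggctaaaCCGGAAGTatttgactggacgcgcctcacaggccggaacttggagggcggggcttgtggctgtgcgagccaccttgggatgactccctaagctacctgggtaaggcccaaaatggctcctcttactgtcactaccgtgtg
Mrps18a (chr17:46110754-46111053, plus strand): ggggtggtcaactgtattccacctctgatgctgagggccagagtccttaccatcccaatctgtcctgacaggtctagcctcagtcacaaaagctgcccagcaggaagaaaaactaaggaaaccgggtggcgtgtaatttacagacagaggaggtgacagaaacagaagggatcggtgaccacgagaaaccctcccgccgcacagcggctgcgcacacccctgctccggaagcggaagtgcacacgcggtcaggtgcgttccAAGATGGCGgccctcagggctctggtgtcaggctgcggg
Mrpl32 (chr13:14612988-14613287, minus strand): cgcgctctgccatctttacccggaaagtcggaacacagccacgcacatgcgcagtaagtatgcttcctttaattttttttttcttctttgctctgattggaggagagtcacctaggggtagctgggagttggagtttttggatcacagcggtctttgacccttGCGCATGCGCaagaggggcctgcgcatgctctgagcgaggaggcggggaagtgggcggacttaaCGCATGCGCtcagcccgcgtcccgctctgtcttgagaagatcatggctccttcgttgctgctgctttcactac

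A promoter was found for 68 of the 77 members, and 25 of the 68 (36.8%) held at least 1 of the 3 motifs. The same share was 7.48% of 27025 genes with a promoter in the table and 16.9% of the 7213 that were also tested here. It was 27.5% for 69 nuclear genes of oxidative phosphorylation and 28.8% for 66 genes of cytosolic ribosomal proteins. The NRF1 letters stood in 7 member promoters (10.3%, against 4.38% of the genes tested), the ETS letters in 11 (16.2%, against 9.57%) and the YY1 letters in 8 (11.8%, against 4.10%). For the nuclear oxidative phosphorylation genes the shares were 11.6% (NRF1), 7.25% (ETS) and 10.1% (YY1). For the cytosolic ribosomal protein genes they were 4.55%, 18.2% and 6.06%. In the Mrpl32 promoter the NRF1 letters matched 3 times, of which the first pair overlap because the motif nearly reads the same on both strands. A match describes the letters only.

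Mean levels of the members ran from 2.10 to 205.6 CPM, led by the large subunit protein Mrpl42. CEL-Seq2 counts 1 end per transcript whatever its length, so CPM can be compared between genes. Mrpl42, a protein of mitochondrial ribosomes only, had 223, 182, 214 and 204 CPM in muscles 1 to 4 (205.6 ± 17.6, SD, n = 4). Its lowest muscle lay above the highest muscle of the next gene, Mrps21, and this was the only gap of the 76 between neighbours in the order, since the other 75 neighbouring pairs overlapped. Mrps21, a small subunit protein with a bacterial homologue, had 140, 120, 86.98 and 112 CPM (114.9 ± 22.05). Mrpl51 (94.1 ± 13.5), Mrpl34 (71.9 ± 12.5) and Mrpl30 (59.7 ± 3.36) followed, all of the large subunit. These 5 genes made up 35.4% of the summed level of all members.

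At the low end stood Mrps11 of the small subunit with 2.10 ± 0.352 CPM, Mrpl46 of the large subunit's central protuberance with 2.90 ± 0.852, and Mrpl49 with 3.19 ± 0.432 (SD, n = 4 each). Mrps11 and Mrpl46 are head-to-head neighbours on chromosome 7 (Mrps11 at 78783119 to 78792989 on the plus strand, Mrpl46 at 78775236 to 78783531 on the minus strand, GENCODE M21 on GRCm38) and overlap at their 5' ends. In all, 35 members overlap a gene on the other strand. Whether the counting used strand is not given in the sources used here, so reads from a shared stretch may not be told apart. The overlap of Mrps11 and Mrpl46 lies away from the 3' ends that the assay counts. Which of the 35 members are overlapped at their 3' end was not checked. The median member had 12.2 CPM, against 6.69 for the 9317 genes tested, 69.6 for cytosolic ribosomal proteins and 147 for nuclear genes of oxidative phosphorylation.

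**Figure D1:**
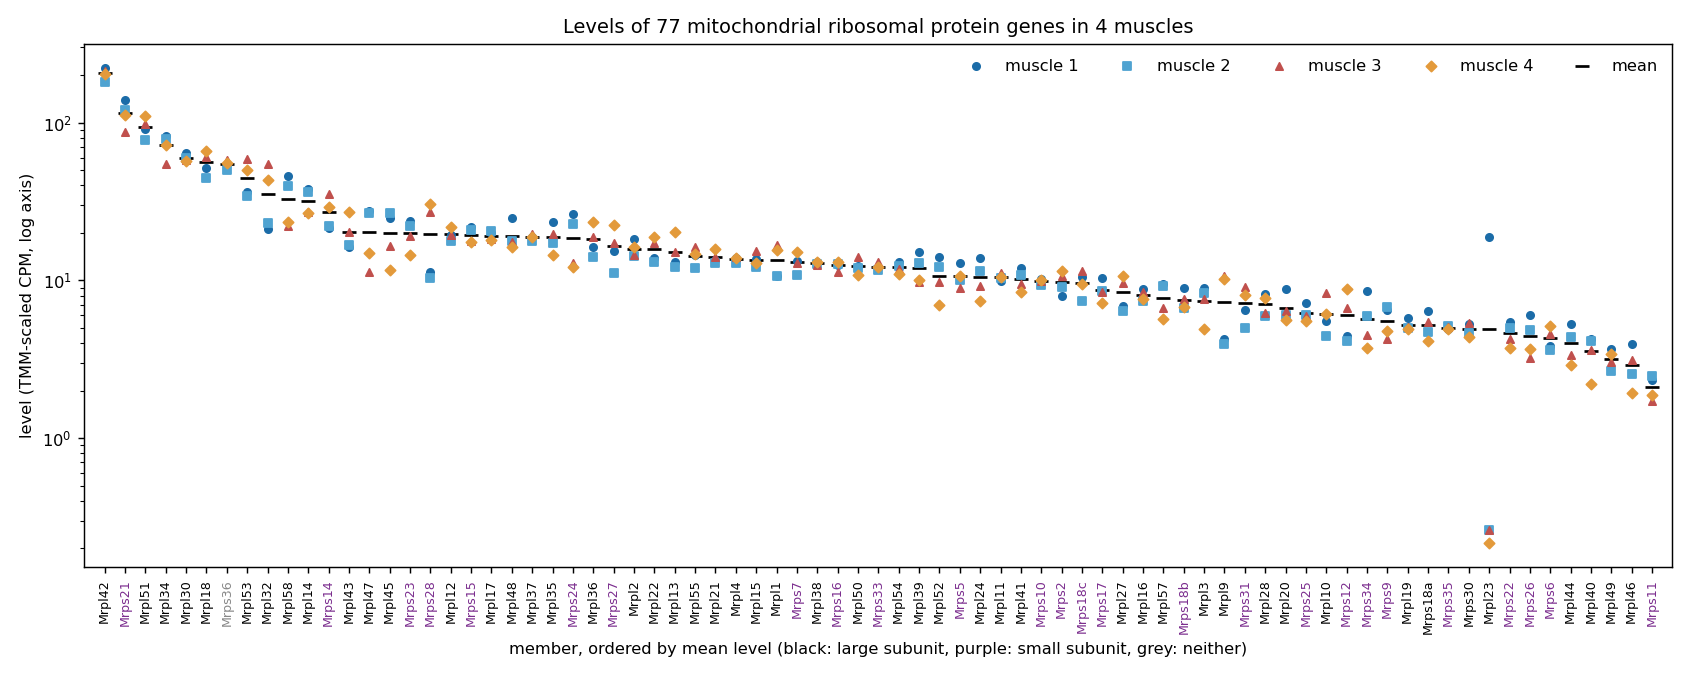
Level of each of the 77 members (horizontal axis, ordered by mean) in TMM-scaled CPM on a log axis, with 1 point per muscle and a bar for the mean. Mrpl42 stands highest at 182 to 223 CPM, Mrps11 lowest at 1.72 to 2.46, and Mrpl23 is near 0 in 3 muscles and at 18.9 in muscle 1.

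Large subunit members were the more abundant group by sum, and the ratio between the subunits was similar from muscle to muscle. Their levels summed to 1175, 1026, 1114 and 1108 CPM in muscles 1 to 4, and those of the small subunit to 415, 365, 360 and 384.4. The large-to-small ratio of these sums was 2.83, 2.81, 3.09 and 2.88, for 50 and 26 genes. The median gene had 12.3 to 14.1 CPM in the large subunit and 8.79 to 10.3 in the small one, so the 2 ranges did not overlap. Within the large subunit the mean levels ran from 2.90 to 205.6 CPM, and within the small subunit from 2.10 to 114.9. The 45 members listed with a bacterial homologue had a median of 13.4 CPM, and the 31 listed as mitochondria-only had 10.7. The 31 included Mrps18a and Mrps18b, although these are also relatives of a bacterial protein.

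The paralogues Mrps18a, Mrps18b and Mrps18c, 3 relatives of 1 bacterial small subunit protein, were all expressed. Mrps18c, in the small subunit, had 10.5, 7.38, 11.4 and 9.43 CPM in muscles 1 to 4. Mrps18b, also in the small subunit, had 8.93, 6.64, 7.62 and 6.74, and Mrps18a, in the large subunit, had 6.41, 4.71, 5.46 and 4.15. In every muscle the order was Mrps18c, Mrps18b, Mrps18a, and over the 4 muscles the ranges of Mrps18c and Mrps18b overlapped while those of Mrps18b and Mrps18a did not.

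Mrpl23, a large subunit protein at the exit tunnel, had its transcripts in different rows of the tables in different muscles. Its own row held 397, 5, 7 and 4 transcripts in muscles 1 to 4. The row of the processed pseudogene Mrpl23-ps1 held 2, 5, 8 and 442, and a row naming both held 0, 341, 551 and 0. Summed over the 3 rows, the gene and its pseudogene had 399, 351, 566 and 446 transcripts, or 21.1, 20.5, 20.97 and 19.5 CPM without TMM scaling. So nearly all of these transcripts fell in the gene's row in muscle 1, in the joint row in muscles 2 and 3, and in the pseudogene's row in muscle 4. Mrpl23 lies on chromosome 7 (142532686 to 142540747, plus strand) and Mrpl23-ps1 on chromosome 2 (74591330 to 74591909, minus strand). Aligned, their transcripts were identical at 541 of 543 positions (99.6%), with no difference in the 441 coding positions. The 85 aligned positions after the stop codon, nearer the counted 3' end, held 1 difference. The transcripts are 692 (Mrpl23) and 580 (Mrpl23-ps1) bases long, so part of each was not aligned. The last 90 coding bases, near the 3' end that the assay counts, are shown because they read the same in both, with the stop codon in capitals.
Mrpl23 and Mrpl23-ps1: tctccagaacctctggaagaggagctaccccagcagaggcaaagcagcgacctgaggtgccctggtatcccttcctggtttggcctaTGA
The next largest share of joint rows was that of Mrps34, with 25.3% of its transcripts in rows that name other genes. All other members had 6.74% or less. The level of Mrpl23 in its own row is therefore not comparable between muscles.

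**Figure D2:**
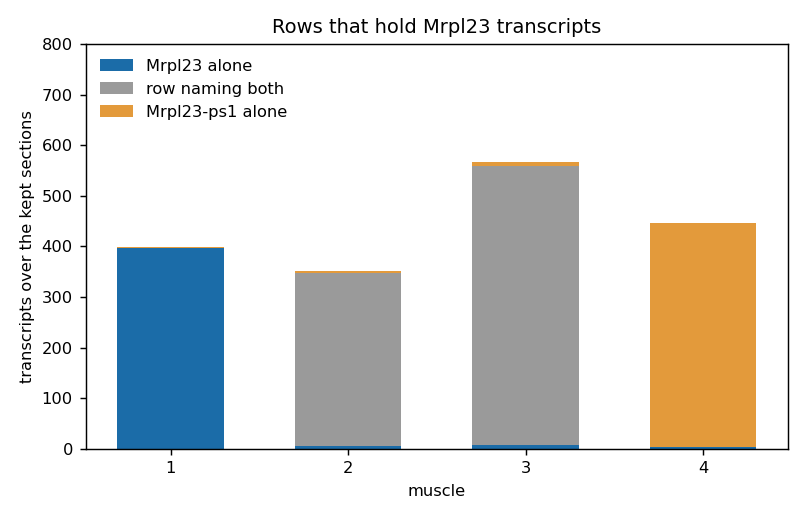
Transcripts over the kept sections (vertical axis) in each muscle, stacked by the row that holds them: Mrpl23 alone, Mrpl23-ps1 alone, or the row naming both. The sums of 351 to 566 sit in a different row in muscle 1, in muscles 2 and 3, and in muscle 4.

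Leaving Mrpl23 out, the order of the members was nearly the same within a barcode set and less alike between sets. Across 76 members, Spearman's rho of the levels was 0.98 between muscles 1 and 2 and 0.97 between muscles 3 and 4. Between muscles of different sets it was 0.87 to 0.90 (across genes, which are not independent replicates, and with the library kit shared). In 53 of the 77 members (68.8%) both muscles of 1 set lay above both of the other, against 68.9% of all 9317 genes tested, so this share was at the background. With a ratio of at least 2 as well, 4 members (5.19%) did so, against 15.1% of all genes tested.

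These 4 were Mrps28, Mrpl9, Mrpl32 and Mrpl47. Mrps28, a small subunit protein, had 11.3 and 10.3 CPM in muscles 1 and 2 and 27.2 and 30.5 in muscles 3 and 4. Mrpl9 of the large subunit had 4.27 and 3.98 against 10.6 and 10.2. Mrpl32, a large subunit protein that is processed by a mitochondrial protease before assembly, had 21.1 and 23.02 against 54.6 and 43.3. Mrpl47, at the exit tunnel, went the other way, with 27.3 and 26.8 against 11.3 and 14.98. The first 3 were 2.67, 2.53 and 2.22 times as high in muscles 3 and 4, and Mrpl47 was 2.06 times as high in muscles 1 and 2.

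To ask whether the members vary along the muscle, the kept sections were assigned to 5 equally long zones per muscle, counts were summed per zone, and zones were compared with edgeR's quasi-likelihood test with muscle as a block. A gene is called changed at a Benjamini-Hochberg adjusted p under 0.05 over all 9317 genes. All 77 members passed the filter on low counts, Mrpl23 through muscle 1. Joining the 3 rows of Mrpl23 (chosen after seeing the data) moved its log2 differences to 0.06 for ends versus middle and 0.06 for first versus last end, with neither called.

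From the first to the last end, most members had lower values, by amounts that passed the test in 1 gene. Of the 77 members, 62 (80.5%) had a positive log2 difference of zone 1 minus zone 5, with a median of 0.14, while 49.6% of all genes were positive with a median of -0.003. In muscles 1 to 4, 51, 54, 47 and 51 members were positive, and the medians were 0.11, 0.24, 0.08 and 0.16. Over all genes the medians in muscles 1 to 4 were -0.007, -0.010, 0.004 and 0. The positive members were not the same each time: 18 of the 77 were positive in all 4 muscles and 4 were negative in all 4. Signs by muscle were not counted over all genes, so these counts have no background beside them. One member was called higher at the first end and none lower. Over all genes 3.18% were called, 2.04% higher and 1.14% lower, so 1 of 77 is not above the background. At an unadjusted p under 0.05 there were 13 members (16.9%), against 13.5% of all genes.

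The member that passed was Mrps36, which is named after the ribosome but serves 2-oxoglutarate dehydrogenase of the citric acid cycle (chromosome 13, 100735955 to 100744659, minus strand). It had 64.05, 58.9, 65.5 and 58.6 CPM in zone 1 of muscles 1 to 4, and 50.6, 43.1, 50.5 and 49.3 in zone 5. Every zone 1 value lay above every zone 5 value, which are the values that the test used. The log2 difference was 0.35 ± 0.09 (SE; edgeR adjusted p = 0.0194), with 0.34, 0.44, 0.37 and 0.25 in the 4 muscles. The call was lost without muscle 1, 2 or 3 (adjusted p = 0.0717, 0.109 and 0.115), although the difference stayed between 0.33 and 0.38.

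Among the true ribosomal proteins, positive differences made up a larger share in the large subunit than in the small one over all 4 muscles, an order that turned in muscles 1 and 2 alone. Of the large subunit, 43 of 50 members were positive (median 0.17), and the sum of its levels was higher in zone 1 than in zone 5 by 0.14, 0.18, 0.16 and 0.15 on the log2 scale. Of the small subunit, 18 of 26 were positive (median 0.05), and the sums differed by 0.00, 0.24, -0.05 and 0.03. No member of either subunit was called. In muscles 3 and 4 alone 9 of 26 small subunit members were positive, and in muscles 1 and 2 alone 20 of 26, while for the large subunit the counts were 37 of 49 and 37 of 50. The order of the medians also turned without muscle 3, where the small subunit's was 0.16 and the large subunit's 0.15, and without muscle 2 the small subunit's was 0.023. The difference between the subunits was not tested.

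Mrps18a (chromosome 17, 46110986 to 46128910, plus strand, with Rsph9 overlapping on the other strand) had the largest positive difference. It stood at 6.24, 6.46, 7.21 and 5.91 CPM in zone 1 and at 5.55, 4.88, 4.27 and 1.92 in zone 5, a log2 difference of 0.68 ± 0.24 (SE; edgeR adjusted p = 0.115). Mrpl41, a mitochondria-only protein of the large subunit (chromosome 2, 24974117 to 24975098, minus strand), had 13.1, 11.8, 11.8 and 9.85 in zone 1 and 11.7, 7.73, 6.96 and 5.44 in zone 5 (0.54 ± 0.17, adjusted p = 0.0582). Mrpl4, a homologue of bacterial L4, came next at 0.42 ± 0.15 (adjusted p = 0.133). All 3 were positive in each muscle, and for Mrps18a every zone 1 value exceeded every zone 5 value. They were picked for the size of this same difference, which favours such agreement, so it adds no support. Without muscle 1, Mrpl41 passed the test at 0.74 (adjusted p = 0.0395). Mrpl14, the homologue of bacterial L14 at the interface between the subunits, was close to the threshold at 0.35 ± 0.11 (adjusted p = 0.0538).

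The largest negative differences were those of the small subunit proteins Mrps35, Mrps11 and Mrps9. Mrps35, in the head of the small subunit, had 3.61, 3.59, 3.01 and 3.94 CPM in zone 1 and 4.32, 4.07, 5.62 and 6.08 in zone 5. The 2 zones did not overlap, but the gene was picked for this same difference, which favours such a gap. Its log2 difference was -0.52 ± 0.26 (SE; edgeR adjusted p = 0.369), negative in all 4 muscles. Mrps11 was at -0.47 ± 0.35 (adjusted p = 0.635) and Mrps9 at -0.28 ± 0.25 (adjusted p = 0.714), and neither passed the test.

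**Figure D3:**
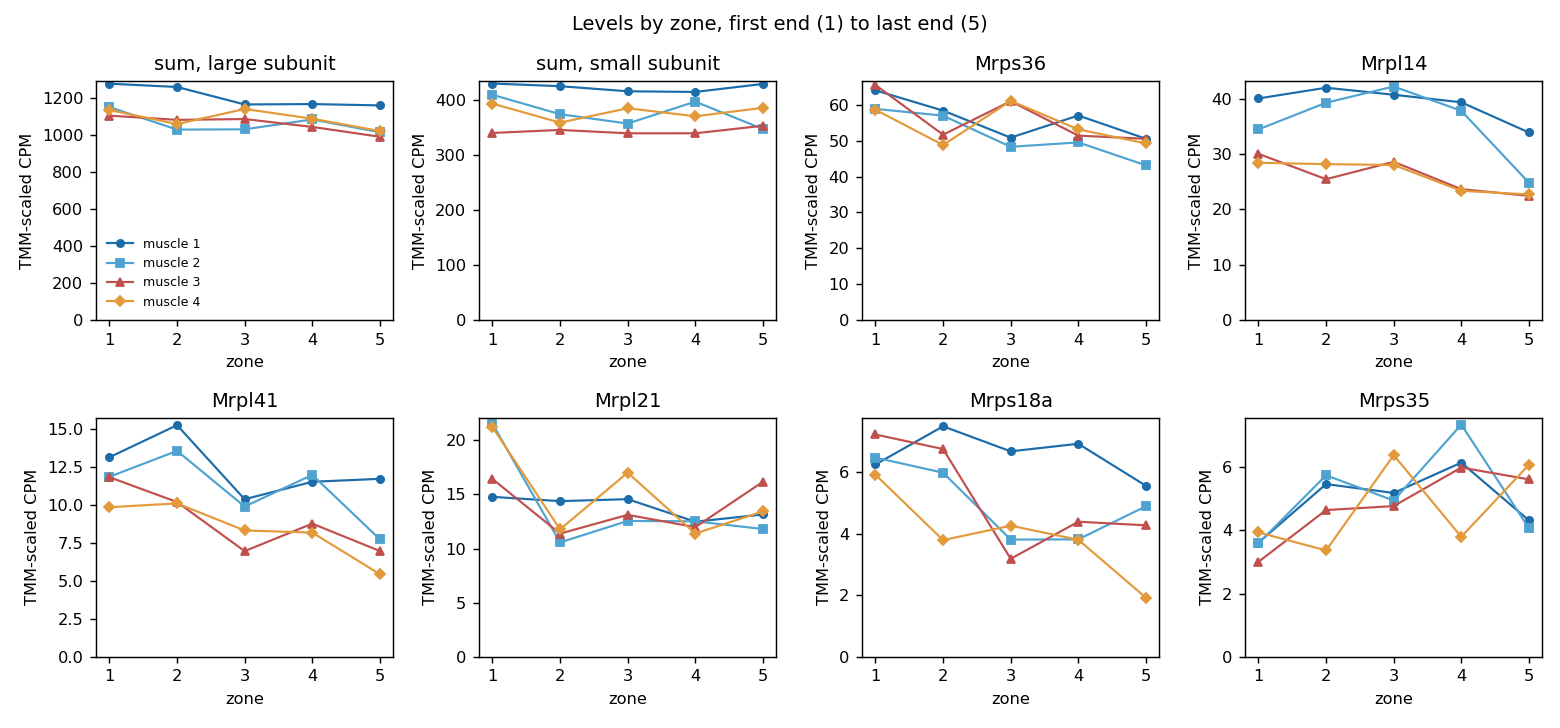
TMM-scaled CPM (vertical axes, from 0) in zones 1 to 5 from the first to the last end, 1 line per muscle, for the summed large and small subunits and 6 members. The large subunit sum is higher in zone 1 than in zone 5 in all 4 muscles, and Mrps35 is lower in zone 1 in all 4.

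Genes that work with the ribosome were compared from lists. Of 66 other genes of mitochondrial translation and gene expression in the tables, 54 were tested, 37 were positive (median 0.07) and 1 was called. This was Tfb2m, a transcription factor of mitochondrial DNA, at 15.8, 21.2, 27.3 and 32.4 CPM in zone 1 and 11.9, 17.1, 19.99 and 23.3 in zone 5 (0.42 ± 0.13, SE; edgeR adjusted p = 0.0479). Leaving out any 1 muscle ended that call (adjusted p = 0.0934 to 0.219). Of 82 nuclear genes of oxidative phosphorylation tested, 80 were positive, the median was 0.26, and 42 were called higher at the first end. Without muscle 2 that count was 3, and in muscles 3 and 4 alone it was 1, with 81 and 76 of 82 positive. Of 82 cytosolic ribosomal proteins tested none was called, 3 were at an unadjusted p under 0.05, and the median was 0.02. The members' median thus lay between those of these 2 lists, a position that was not tested.

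**Figure D4:**
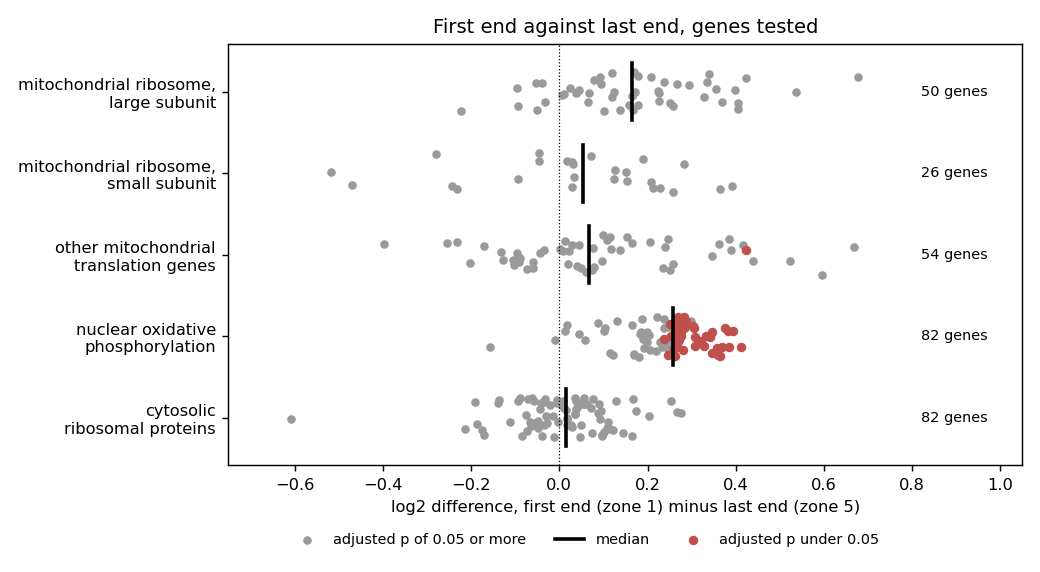
Log2 difference of zone 1 minus zone 5 (horizontal axis) for each gene tested in 5 lists, with a bar for the median and red points for an edgeR adjusted p under 0.05. Medians are 0.17 for the large subunit, 0.05 for the small subunit, 0.07 for other mitochondrial translation genes, 0.26 for nuclear oxidative phosphorylation and 0.02 for cytosolic ribosomal proteins.

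Markers of other cells also differed between the ends. The 5 erythrocyte markers summed to 1342 to 4215 CPM in zone 1 and 604 to 1611 in zone 5, and were higher in zone 1 in every muscle. The 4 tendon markers tested summed to 25.1 to 43.1 in zone 1 and 44.8 to 91.7 in zone 5, and were lower in zone 1 in every muscle. The 4 Schwann cell markers were higher in zone 1 by 0.76, 1.04, 0.44 and 2.55 on the log2 scale of their sum, and 2 of the 4 were called. The 6 muscle fibre markers had differences of -0.04, -0.14, -0.11 and -0.17 in their sum. Singly they ran from -0.31 to 0.29, with 1 called higher and 1 lower. Smooth muscle and pericyte markers had 0.63, -0.12, 0.08 and 1.03 in their sum, with 2 of 4 called higher. Endothelial markers had -0.06, 0.44, 0.31 and 0.20, with 1 of 4 called higher. Fibro-adipogenic progenitor markers had -0.80, -0.22, 0.11 and -0.16, with 1 of 6 called lower. Median section depth was also higher in zone 1 than in zone 5 in all 4 muscles (494012 against 406235 transcripts in muscle 1, 255010 against 208255 in muscle 2, 468806 against 354969 in muscle 3, and 612213 against 482562 in muscle 4). The part of these in the members' difference was not tested.

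Between the ends and the middle, the members showed no common direction. Of the 77, 33 were positive for the mean of zones 1 and 5 minus zone 3, with a median of -0.02, beside -0.01 for all genes. No member was called by edgeR, against 1.45% of all genes, 0.623% higher and 0.826% lower. At an unadjusted p under 0.05 there were 11 members (14.3%), against 11.9% of all genes. DESeq2 called 1, Mrps21, and edgeR without muscle 4 called 1, Mrps10.

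Mrps10, in the head of the small subunit, came nearest in the fit of all 4 muscles at 0.48 ± 0.15 (SE; edgeR adjusted p = 0.0881). It had 7.65, 7.61, 6.56 and 10.2 CPM in zone 3 of muscles 1 to 4, with 9.20, 14.7, 10.8 and 12.7 in zone 1 and 11.5, 10.99, 11.9 and 7.36 in zone 5. Muscle 4 went against the other 3, at -0.08 against 0.40 to 0.75, and without it the adjusted p was 0.0218. Mrpl46 (0.48 ± 0.26, adjusted p = 0.471) and Mrps11 (0.45 ± 0.30, adjusted p = 0.598) completed the 3 largest positive differences, both low, at 0.967 to 5.18 CPM over the zones for Mrpl46 and 0.421 to 4.07 for Mrps11. The 3 largest negative ones were Mrpl3, a homologue of bacterial L3, at -0.44 ± 0.16 (adjusted p = 0.165), Mrps35 at -0.33 ± 0.20 (adjusted p = 0.528) and Mrpl50 at -0.31 ± 0.13 (adjusted p = 0.308).

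Of the other genes of mitochondrial translation, 1 was called in this contrast. Lars2, which charges mitochondrial leucine tRNA, had 23.3, 25.5, 21.4 and 20.1 CPM in zone 1, 37.3, 36.1, 25.6 and 22.6 in zone 3, and 15.8, 20.8, 17.97 and 22.4 in zone 5. Both ends lay below the middle in all 4 muscles, with a log2 difference of -0.54 ± 0.13 (SE; edgeR adjusted p = 0.0103). The call was lost without muscle 1 or 2 (adjusted p = 0.211 and 0.156) and in muscles 3 and 4 alone (-0.24, adjusted p = 0.755). With 3 zones in place of 5 the difference was -0.14 (adjusted p = 0.682), and with limma -0.94 (adjusted p = 8.1e-05). The 2 mitochondrial rRNA genes had a median of -0.22 for ends versus middle, with neither called. By muscle their median was 0.12, -0.54, -0.23 and -0.21 in muscles 1 to 4. Whether reads of mitochondrial rRNA fell in the Lars2 row was not tested.

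Any difference among the 5 zones was called for 2 members, Mrpl21 and Mrpl41 (3.98% of all genes were called, so 2 of 77 is below the background). Mrpl21, the homologue of bacterial L21, had 14.8, 21.5, 16.4 and 21.2 CPM in zone 1 and 14.4, 10.6, 11.4 and 11.8 in zone 2, with 11.4 to 17.02 in the zones after it (edgeR adjusted p = 0.0140). Every zone 1 value lay above every zone 2 value, and muscle 1 had the smallest gap. Comparing zones 1 and 2 was not planned, and the gap lies in the values that the test used. For Mrpl41 (adjusted p = 0.0444) zones 1 and 2 were the highest, at 9.85 to 15.2 CPM, against 5.44 to 11.98 in zones 3 to 5. The call of Mrpl21 was lost without muscle 2, 3 or 4 (adjusted p = 0.188, 0.0644 and 0.185), and that of Mrpl41 without any 1 muscle (0.0636 to 0.346). For Mrpl21 (chromosome 19, 3282901 to 3292837, plus strand) the gene Ighmbp2 overlaps on the other strand.

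Within single muscles, a smooth curve of position was fitted to the sections (natural spline, 4 degrees of freedom). The p-values of these fits measure the spread between sections of 1 muscle. Members were called in 0 of 77, 1 of 76, 1 of 76 and 0 of 76 cases in muscles 1 to 4, against 1.22%, 3.06%, 3.44% and 1.39% of all genes fitted. At an unadjusted p under 0.05 there were 2, 6, 10 and 5 members (2.60%, 7.89%, 13.2% and 6.58%), against 9.11%, 11.7%, 12.9% and 9.41% of all genes fitted. Mrpl14 was called in muscle 2 (edgeR adjusted p = 0.0174), where its summed zones ran 34.5, 39.3, 42.2, 37.8 and 24.8 CPM from first to last. In the other 3 muscles its adjusted p was 0.640 to 0.814. Mrpl50 was called in muscle 3 (adjusted p = 0.0352), with 15.2, 10.8, 16.7, 14.9 and 8.98 CPM over the zones. Its adjusted p was 0.543 to 0.873 in the other 3 muscles. Mrpl53, a stalk protein, followed in muscle 3 (adjusted p = 0.0609), highest in zone 3 at 73.5 CPM against 49.2 to 56.5 in the other zones. Its adjusted p was 0.398 to 0.857 in the other 3 muscles. Zone 3 was also its highest in muscles 1 and 4, and its lowest in muscle 2, at 32.7 CPM.

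**Figure D5:**
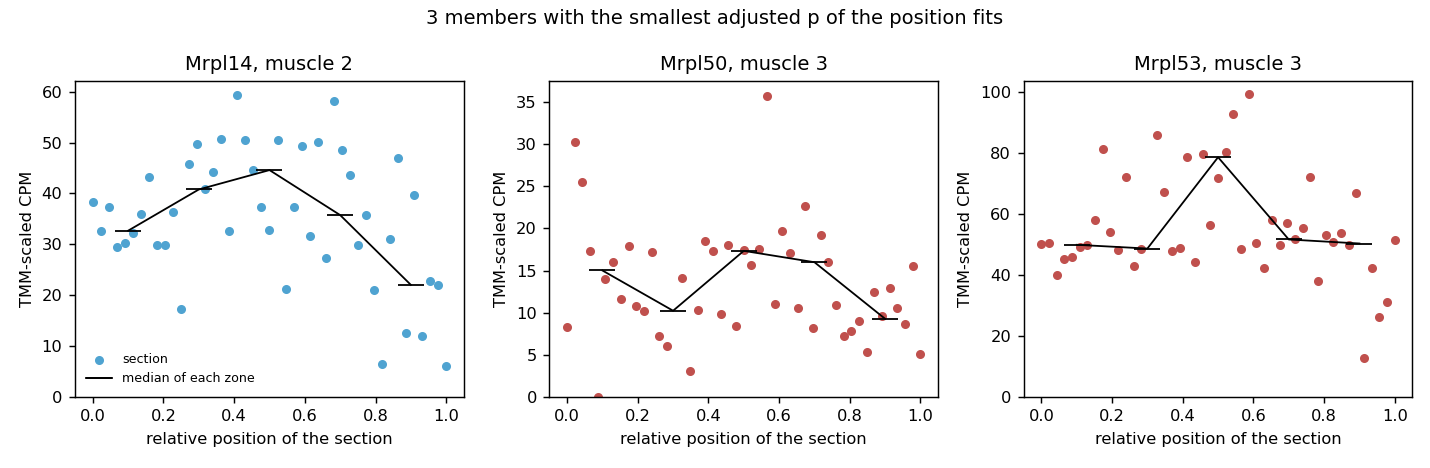
TMM-scaled CPM (vertical axes) of 3 members against relative position (0 first kept section, 1 last), 1 point per section, with the median of each zone as a line. Mrpl14 falls toward the last end of muscle 2, from a section median of 44.6 CPM in zone 3 to 22.01 in zone 5, and Mrpl53 is highest in the middle zone of muscle 3, with a section median of 78.6.

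Summed over all 77 members, the level also varied between the sections of a muscle. In muscles 1 to 4 it ran from 1026 to 2115 CPM (median 1718), from 1029 to 1868 (1453), from 973 to 1966 (1482) and from 1075 to 1860 (1421). The coefficient of variation was 11.8%, 11.99%, 14.03% and 14.8%, and each section held from 133 to 2796 member transcripts. Large and small subunit sums correlated across sections, with Pearson's r of 0.75, 0.61, 0.75 and 0.77.

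The member sum also followed other nuclear-encoded lists. Across the 37 to 46 sections of each muscle, Pearson's r with nuclear oxidative phosphorylation was 0.84, 0.84, 0.92 and 0.90, and with cytosolic ribosomal proteins 0.87, 0.66, 0.91 and 0.90. With the 13 mitochondrially encoded protein genes, the templates of this ribosome, it was 0.13, 0.61, -0.00 and 0.19. A gene has a limited number of molecular identifiers per section, which caps its count. No member used more than 9.69% of them in a section, while the 13 genes had a median level of 44600 CPM. Whether these 13 reached the cap, and the part of the cap in their correlation, was not tested. The sections of a muscle share a library and differ in depth, and the member sum correlated with the log10 of the section's transcripts at 0.65, 0.76, 0.81 and 0.79. The part of depth in the correlations was not tested.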

How the data were processed

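Sections of 4 muscles were measured by TOMO-seq with CEL-Seq2 libraries, which count 3' ends with molecular identifiers (UMIs). Per the submitters' processing notes, STAR 2.7.7a and GRCm38 were used. Which counting program and annotation were used, and whether strand was, is not given in the sources used here. Deposited count tables hold estimated counts of transcripts per gene and section, which the authors corrected for repeated UMIs, as the values themselves show: 100% come from whole UMI counts out of 4096 possible within 0.001. The deposited filtered tables hold a signal per gene and section and served only to tell which sections the authors kept.

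The 4 muscles held 18924848, 17114433, 26989829 and 22878407 transcripts in kept sections. Sections were placed in barcode order, summed into 5 zones of equal length, giving 1989680 to 6604610 transcripts per zone, and rounded. edgeR 4.0.16 in R 4.3.3 (TMM, filterByExpr, muscle as block, quasi-likelihood test) tested 9317 genes, with Benjamini-Hochberg adjustment over all of them. The same tool fitted position within each muscle for genes detected in 25% or more of the sections. Differences within a muscle used log2(CPM + 0.5). The code was tested on simulated data. The replicate number is the muscle, so zones of 1 muscle pair by design. Alternatives included DESeq2 1.42.0 and limma 3.58.1. The genes named are the called members, the 3 largest differences each way, the 5 highest and 3 lowest levels, the Mrps18 paralogues, called genes of the related lists, and the 3 smallest adjusted p-values of position. Members and lists were chosen with earlier results of these data known. Only counting error is covered by depth.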

Additional observations from a re-analysis of the deposited data

Results flagged for a closer look

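Of 97 sets of 4 muscle values checked for 1 value far from the other 3, 5 had one, and chance gives about 1 in 20. The level of Mrpl23 was 18.9 CPM in muscle 1 and 0.216 to 0.262 in the others, which is the muscle whose transcripts fell in the gene's own row. Mrpl48 stood at 24.9 CPM in muscle 1 against 16.4 to 17.7, and Mrpl19 at 5.79 in muscle 1 against 4.90 to 5.04. For ends minus middle, Mrpl50 was at 0.18 (log2) in muscle 1 against -0.49 to -0.42, and Mrps35 at -0.19 in muscle 3 against -0.35 to -0.33.

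Barcodes that the authors did not keep also held member transcripts, 2860 in all. The limit for a flag was 3, which sums over 50 to 59 barcodes were bound to pass. Passing it therefore does not tell what these barcodes hold. They were 951, 819, 590 and 499 transcripts under 59, 51, 50 and 53 barcodes of muscles 1 to 4. As CPM without TMM scaling this was 1338, 1188, 855 and 901, against 1831, 1610, 1520 and 1256 in the kept sections.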

How the results depend on the processing

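For ends versus middle, the count of members called was 1 with DESeq2 (Mrps21) and 0 to 1 when each muscle was left out in turn, and the median was -0.17 with limma (the median of all genes was also -0.17 there), -0.092 in muscles 3 and 4 alone and -0.05 to -0.00 without each muscle. For first versus last end, 2 members were called with DESeq2 size factors in edgeR and with the UMI correction undone (Mrpl14 and Mrps36 in both), 3 with 3 zones (Mrpl14, Mrpl41 and Mrps18a), and 0 with no filter, with thinned zone sums, in muscles 1 and 2 alone, in muscles 3 and 4 alone and with no replicate block. Without each muscle the count was 0 to 1 and the median 0.12 to 0.16, and with limma the median was 0.22 (0.05 for all genes). The call of Lars2 was lost in 6 of 17 alternatives, among them thinned sums (adjusted p = 0.0648) and no replicate block (1.00). Mrps36 was called in 7 of 17 alternatives and was positive in all 17. For any difference among zones, 1 member was called with DESeq2, with no filter and with the outer sections left out (Mrpl21 each time), with 3 zones (Mrpl14) and with limma (Mrpl38), 0 with thinned sums, in either pair of muscles alone and with no replicate block, and 0 to 1 without each muscle. Without the block, the pairing of zones by muscle is lost and the adjusted p of Mrps36 was 1.00. Directions reversed for 5 named results, none of which passed the test. For ends versus middle, Mrpl46 was -0.022 with 3 zones, and Mrps18c was -0.27 in muscles 3 and 4 alone and -0.090 to 0.21 without each muscle (below 0 without muscle 1 or 2). For first versus last end, Mrps18b was -0.067 in muscles 3 and 4 alone, Mrps18c was 0.016 thinned, 0.17 in muscles 1 and 2 alone and -0.34 to 0.061 without each muscle (above 0 without muscle 4), and Mrps9 was 0.19 thinned and 0.0079 with limma. The cause was not tested.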
